A study of Mus musculus with 8 samples.

Results

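The 6 genes described here encode intermediate filament proteins of neurons and their precursors. They are Nefl, Nefm and Nefh, the light, medium and heavy neurofilament subunits, Ina (alpha-internexin), Prph (peripherin) and Nes (nestin). They were chosen by symbol from a table of 26229 genes, by a rule that used no values but with earlier results of these data known. All 6 were among its 18085 tested genes. The table compares RNA of primary cortical neurons between 2 genotypes, wild type and a line labelled H2BE-KO/mCherry-KI, in which a knock-in of mCherry disrupts H2bc21, which encodes the variant histone H2BE. Both groups were mouse neurons taken from embryos at E16.5 and cultured for 12 days, with 4 libraries of polyadenylated RNA per genotype that the labels call biological replicates. The labels do not give the founder, the strain or the number of embryos per culture. Values of single libraries and their depth were not analysed here, so the spread between replicates enters only through the standard errors (SE) of the authors' deposited table.

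Intermediate filaments are rope-like polymers of the cytoskeleton. In axons of the central nervous system Nefl forms the core of the neurofilament with alpha-internexin, while Nefm and Nefh add long side arms and the content of neurofilaments sets axon calibre. During development nestin marks dividing precursors, alpha-internexin appears early in young neurons, the light and medium subunits follow and the heavy subunit comes last. Peripherin belongs to the vimentin-like class and is best known from peripheral and motor neurons.

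The promoters of the 2 genes that rose, Prph and Ina, and that of the precursor gene Nes are shown here because these 3 lay above 0 and had an entry in the RefSeq promoter table of GRCm38.p6. Each run is the plus strand, 5′ to 3′, and ends before the first annotated base of the transcript. Capitals mark the TATA box (TATAAA) and the SP1 GC box (GGGCGG), each searched on both strands.
Prph, chr15:99054924-99055173: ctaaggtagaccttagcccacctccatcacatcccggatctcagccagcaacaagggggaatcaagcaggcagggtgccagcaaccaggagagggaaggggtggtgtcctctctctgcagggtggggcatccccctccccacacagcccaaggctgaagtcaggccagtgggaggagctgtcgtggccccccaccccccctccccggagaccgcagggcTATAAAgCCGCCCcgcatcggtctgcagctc
Ina, chr19:47014431-47014680: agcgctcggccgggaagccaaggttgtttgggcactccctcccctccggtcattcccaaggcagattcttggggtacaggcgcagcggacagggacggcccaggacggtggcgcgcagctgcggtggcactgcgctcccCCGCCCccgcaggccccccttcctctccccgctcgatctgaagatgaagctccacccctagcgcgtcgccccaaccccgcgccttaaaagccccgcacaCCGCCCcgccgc
Nes, chr3:87970843-87971077: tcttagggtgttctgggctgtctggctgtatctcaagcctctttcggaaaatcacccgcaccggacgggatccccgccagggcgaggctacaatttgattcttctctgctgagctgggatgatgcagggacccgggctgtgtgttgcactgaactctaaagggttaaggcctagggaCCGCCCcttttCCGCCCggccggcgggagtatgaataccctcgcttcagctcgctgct
The Prph promoter held 1 TATA box, which began 31 bases before the end of the run, followed after 1 base by 1 GC box. Ina held no TATA box and 2 GC boxes in 250 bases, and Nes held no TATA box and 2 GC boxes in 235 bases. Among 32851 promoters of the table, cut to 250 bases, 12.4% held a TATA box and 32.7% a GC box. The GC content was 65.2% for Prph, 70.8% for Ina and 58.7% for Nes, and the runs held 7, 25 and 14 CG pairs. An E-box (CANNTG), the core that neurogenic helix-loop-helix factors recognise, occurred once, in the Ina run, against 66.2% of all promoters with at least 1. No run held a cyclic AMP response element (TGACGTCA), its TGACG core or a CCAAT box on either strand, which 1.55%, 17.8% and 33.8% of promoters did. Nefl, Nefm and Nefh were not matched in that table.

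The filament genes moved in opposite directions. Per the authors' deposited table Nefh fell, Ina and Prph rose, and Nefl, Nefm and Nes did not pass an adjusted p of 0.05 in the Wald test of DESeq2. These 3 calls among 6 genes stand beside 21.8% called among all tested genes, with 11.0% higher and 10.9% lower. Among abundant genes calls were more frequent. Of genes whose mean normalized count reached 1000, the class of Nefl, Nefm, Nefh and Ina, 30.6% were called, and of those from 100 to 1000, the class of Prph and Nes, 26.1%. Fold changes are given as the knockout relative to wild type. The header names no direction, so it was taken from H2bc21, which the knockout should remove and which then stood at -3.45 (SE 0.19) on the log2 scale, and with the opposite reading each rise would be a fall. The calls rest on the normal distribution of the Wald statistic: with a t distribution at 6 degrees of freedom none of the 6 genes and 0.00553% of all tested genes passed. When a log2 change of 0.5 either way was also required, which left 14.7% of tested genes called, Ina was no longer among them.

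**Figure D1:**
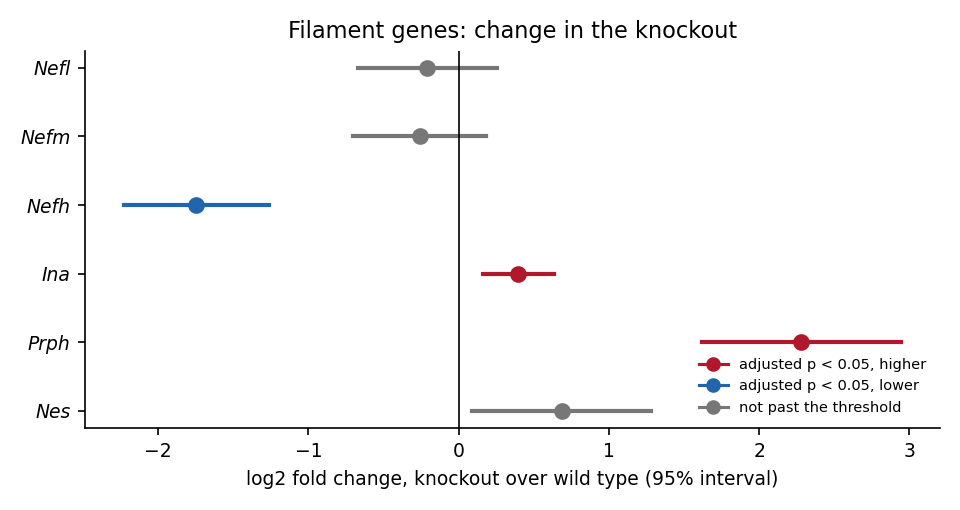
Log2 fold change of each filament gene, knockout over wild type, with its 95% interval as the bar. Nefh lies below 0 at -1.75, Ina and Prph lie above 0 at 0.40 and 2.28, and the intervals of Nefl and Nefm span 0.

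Levels of the 6 genes spanned a wide range. The mean normalized count, which is the count divided by the library's size factor and averaged over all 8 libraries, was 18596 for Ina, 11450 for Nefl, 4687 for Nefm, 1281 for Nefh, 478 for Nes and 279 for Prph. Ina ranked 256th and Nefl 593rd of all tested genes by this count. With 4 libraries per genotype, the mean count and the fold change together imply a level in each genotype, which is an estimate from the table and not a mean of measured libraries. Divided by the length of the principal transcript, the implied wild-type level was 4958 normalized counts per kb for Ina, 3632 for Nefl, 1532 for Nefm, 494 for Nefh, 59.8 for Nes and 51.1 for Prph. In the knockout it was 6522 per kb for Ina, 3144 for Nefl, 1280 for Nefm, 248 for Prph, 147 for Nefh and 96.1 for Nes. Ina, Nefl and Nefm kept the first ranks of this order in both genotypes. Prph stood last of the 6 in wild type and above Nefh in the knockout.

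**Figure D2:**
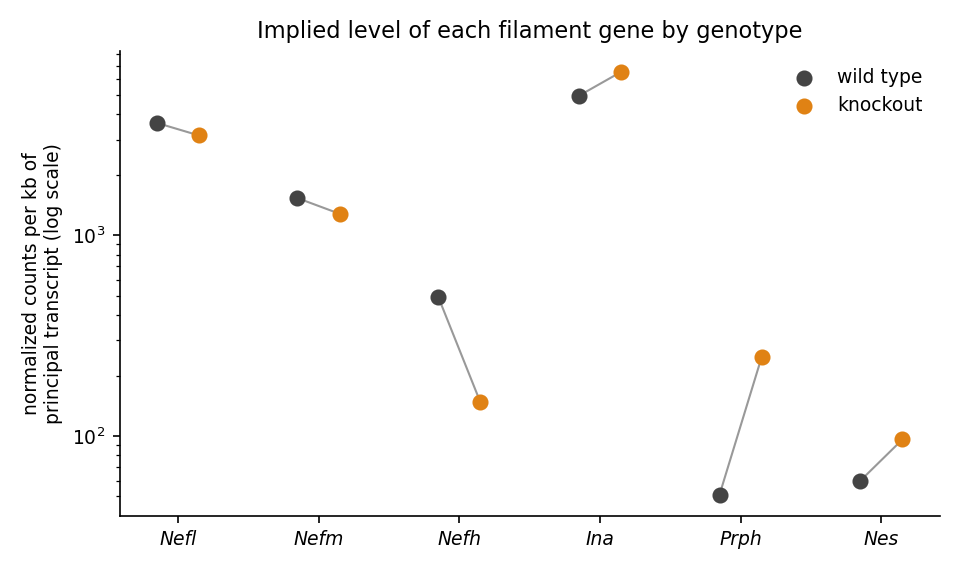
Implied level of each filament gene in wild type (dark points) and knockout (orange points), in normalized counts per kb of the principal transcript on a log axis. Nefh falls from 494 to 147 and Prph rises from 51.1 to 248, while Nefl and Nefm stand at similar levels in both genotypes.

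Nefl encodes the light subunit, on which the neurofilament polymer is built. Its implied level was 12275 normalized counts in wild type and 10626 in the knockout. Its log2 change in the authors' deposited table was -0.21, with an SE of 0.24 and a 95% interval from -0.67 to 0.26 (adjusted p = 0.587). An estimated change of either sign beyond 1.52-fold would have been called at this SE. True differences near or below that size could have been missed. The SE was above the median of 0.127 for genes of this abundance.

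Nefm encodes the medium subunit, a side-arm protein. Its implied level was 5108 normalized counts in wild type and 4266 in the knockout. By the authors' deposited table the log2 change was -0.26, with an SE of 0.23 and a 95% interval from -0.70 to 0.18 (adjusted p = 0.455). An estimated change beyond 1.49-fold would have been called. Nefl and Nefm differed in log2 fold change by 0.05, with a 95% interval of -0.59 to 0.69 if their errors are independent.

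Nefh encodes the heavy subunit, whose tail is the most heavily phosphorylated of the neurofilament proteins. Its implied level was 1974 normalized counts in wild type and 588 in the knockout, so that the knockout stood at 29.8% of wild type. In the authors' deposited table its log2 change was -1.75 (SE 0.25, 95% interval -2.23 to -1.27, adjusted p = 2.22e-10). It ranked 19th from the lowest by log2 fold change among the 6808 tested genes whose mean count reached 1000. Its Wald statistic ranked 86th in size among all tested genes. Within the neurofilament triplet, the share of Nefh in the summed implied level per kb was 8.74% in wild type and 3.22% in the knockout. Nefl took 64.2% and 68.8% of that sum and Nefm 27.1% and 28.0%, and the sum in the knockout was 80.8% of wild type. With the union of all annotated exons as the length, which for Nefm includes a long isoform, Nefm stood at 883 per kb in wild type in place of 1532 and took 17.6% and 18.3% of the sum. These shares have no error, since the covariance between genes is not in the table.

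Ina encodes alpha-internexin, which co-assembles with the triplet in central axons, and was the most abundant of the 6. Its implied level was 16063 normalized counts in wild type and 21130 in the knockout. The authors' deposited table placed it 1.32-fold higher, with a log2 change of 0.40 (SE 0.12, 95% interval 0.16 to 0.63, adjusted p = 0.00804). The SE was the smallest of the 6. In size the change was modest beside those of Nefh and Prph. By log2 fold change it ranked 819th from the top among the 6808 tested genes whose mean count reached 1000. Of all tested genes 79.9% had a lower log2 fold change and 1981 were called higher.

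Prph encodes peripherin and was the least abundant of the 6. Its implied level was 95.2 normalized counts in wild type and 463 in the knockout, a 4.86-fold rise. The log2 change in the authors' deposited table was 2.28 (SE 0.34, 95% interval 1.62 to 2.94, adjusted p = 1.95e-09). It ranked 167th from the top by log2 fold change among all tested genes and 20th among the 4729 genes with a mean count from 100 to 1000. Of the summed implied level per kb of the 5 filament genes other than Nes, Prph made 0.479% in wild type and 2.19% in the knockout. Ina made 46.5% and 57.5% of that sum, and the sum in the knockout was 106% of wild type.

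Nes encodes nestin, the filament protein of neural precursors, which is also made by reactive glia and by cells of growing vessels. Its implied level was 366 normalized counts in wild type and 589 in the knockout. Per the authors' deposited table the log2 change was 0.69 (SE 0.30, 95% interval 0.09 to 1.28). It did not pass after adjustment over all tested genes (adjusted p = 0.0903), and at this SE an estimated change beyond 1.71-fold would have been called.

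**Figure D3:**
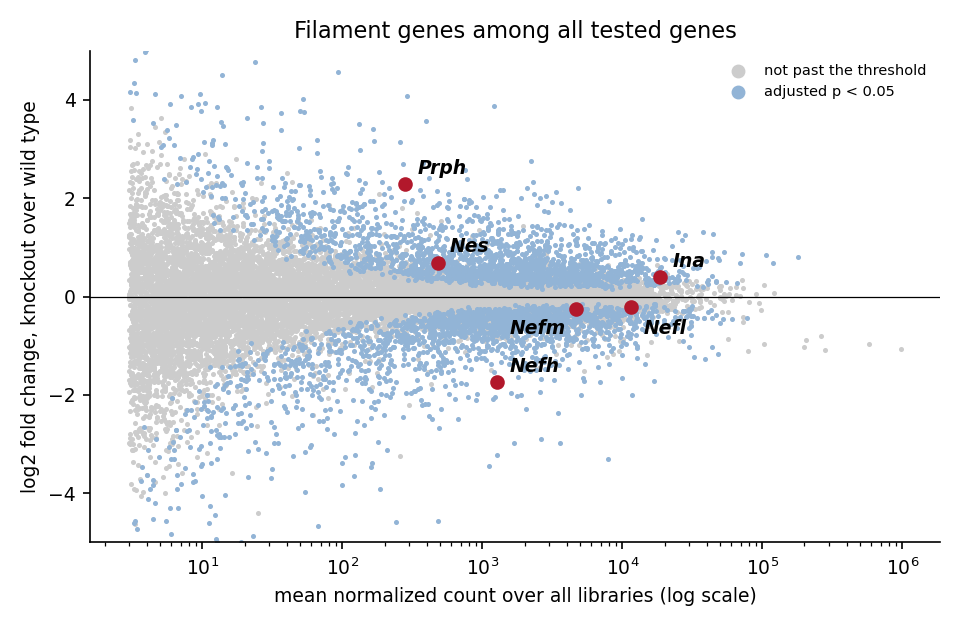
Log2 fold change (knockout over wild type) against the mean normalized count over all libraries, on a log axis, for every tested gene, with the 6 filament genes as labelled red points. Prph and Nefh lie at the edges of the cloud for their counts, and 39 genes beyond a log2 fold change of 5 either way lie outside the axis.

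The mature filament genes did not differ from Nes in a single direction. Both genes of a pair were measured in the same libraries and the covariance of their errors is not known, so each difference in log2 fold change is given with the widest interval the 2 SEs allow. Nefh minus Nes was -2.43, with a widest 95% interval of -3.51 to -1.36, which is a 5.40-fold lower ratio of Nefh to Nes in the knockout. Prph minus Nes was 1.60, with a widest interval of 0.34 to 2.85. For Nefl minus Nes (-0.89) and Nefm minus Nes (-0.94) the widest intervals, -1.95 to 0.17 and -1.99 to 0.10, held 0, and with independent errors they did not (-1.65 to -0.14 and -1.69 to -0.20). Ina minus Nes was -0.29, and its interval held 0 in both cases (-1.12 to 0.54 at the widest).

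Nefh stood apart from the other subunits of the triplet by the same measure. Nefl minus Nefh was 1.54 (widest 95% interval 0.59 to 2.48) and Nefm minus Nefh 1.49 (0.56 to 2.41), so the ratio of Nefl to Nefh was 2.91-fold higher in the knockout. Nefh minus Ina was -2.14 (-2.86 to -1.43). The widest gap lay between Nefh and Prph at -4.03 (-5.17 to -2.89), a 16.3-fold shift in their ratio. In all, 13 of the 15 pairs had an interval without 0 under independence and 9 at the widest, with no adjustment for the number of pairs.

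**Figure D4:**
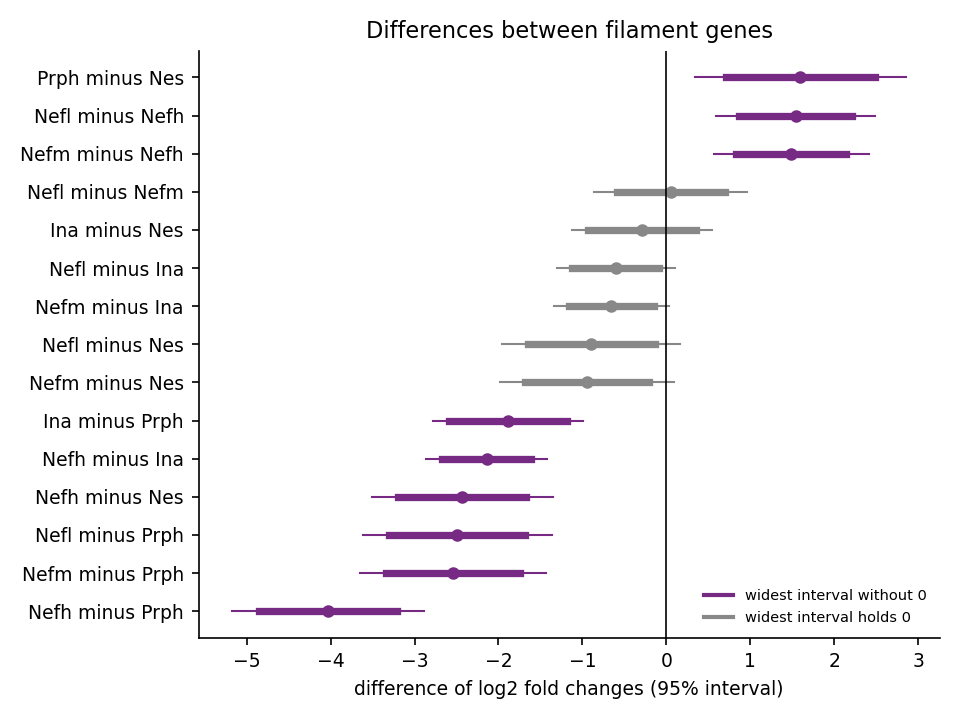
Difference of log2 fold changes (knockout over wild type) for the 15 pairs of filament genes, first gene minus second. Thick bars are 95% intervals with independent errors and thin bars the widest intervals, which leave out 0 in 9 pairs, drawn in purple.

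The genes lie on 5 chromosomes in GRCm38, the assembly that mm10 names. In the GENCODE M21 annotation Nefl occupies bases 68083863 to 68089095 of chromosome 14, plus strand, and Nefm, on the minus strand, from 68082590 to 68124846. A long Nefm isoform reaches across Nefl and overlaps 1108 bases of its exons, whereas the 3-exon principal Nefm transcript (68119283 to 68124846) does not. Ina occupies bases 47014698 to 47025327 of chromosome 19, plus strand, and its first 456 bases overlap exons of Nt5c2 on the other strand. The library kit keeps strand, per the labels, but the use of strand in counting is not given in the sources used here. Without it, reads from these overlaps could not be assigned, so the values of Nefl, Nefm and Ina are uncertain to that extent. In the authors' deposited table Nt5c2, a nucleotidase gene, was at 0.16 on the log2 scale (SE 0.06, adjusted p = 0.0245), and its mean count was 2672 against 18596 for Ina.

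Nefh lies on the minus strand of chromosome 11 from 4938754 to 4948064 in 4 exons, and Prph on chromosome 15, plus strand, from 99055174 to 99058978, with 8 exons in its principal transcript. Nes, also on the plus strand, occupies chromosome 3 from 87971078 to 87980451. No 50-base stretch of the principal transcripts of Nefm, Nefh, Prph or Nes occurred in a transcript of another annotated gene on either strand. For Nefl 31.8% and for Ina 12.8% of such stretches did, on the opposite strand and only in Nefm and Nt5c2.

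The nearest tested gene on either side of Nefh and of Prph did not pass. Within 0.5 Mb on each side, 3 of 17 tested genes around Nefh rose and 1 fell. Around Prph 4 of 36 rose and 4 fell, and over all tested genes 21.8% were called. Per the authors' deposited table Thoc5 and Ap1b1, on either side of Nefh, were at 0.13 (SE 0.11) and -0.15 (SE 0.13). Tuba1c and Troap, beside Prph, were at 0.82 (SE 0.49) and 1.07 (SE 1.26) with mean counts of only 23.0 and 3.70. Dock5 and Stc1, the nearest tested genes outside the Nefl and Nefm pair, lay 149 kb and 904 kb from Nefm. Both were at -0.01 (SE 0.51 and 0.43). Pcgf6, 8.29 kb from Ina, was at 0.29 (SE 0.12, adjusted p = 0.0618). Cnnm2, 134.5 kb away on the other side of Ina, fell to -0.59 (SE 0.16, adjusted p = 0.00216).

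Nes shares its chromosome with the targeted gene, at a distance of 8.24 Mb. Of the 190 tested genes between them, 13 rose and 29 fell, which is 22.1% called. Over all tested genes 21.8% were called, with 11.0% higher and 10.9% lower. The neighbours of Nes, Bcan, the gene of the brain proteoglycan brevican, and Crabp2 were at 1.02 (SE 0.47) and 0.92 (SE 0.85) in the authors' deposited table, and neither passed.

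Other members of the intermediate filament family were called at a share near that of all genes, 15.8% against 21.8%. Of 26 listed, 19 were tested. By the authors' deposited table the genes that rose numbered 2, 1 fell and 16 did not pass. Their median was -0.03 on the log2 scale, against -0.02 for all tested genes. Lmnb1, a lamin of the nuclear envelope, rose to 0.92 (SE 0.18, adjusted p = 1.33e-05) and Synm, the gene of synemin, which co-assembles with vimentin-class filaments, to 0.85 (SE 0.21, adjusted p = 5.41e-04). Iffo1 fell to -0.36 (SE 0.14, adjusted p = 0.0445). Vim and Gfap, named outside the selection rule as the filaments that accompany nestin in precursors and astrocytes, were at -0.32 (SE 0.27) and 1.40 (SE 1.03), and neither passed.

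Genes of proteins that link, move, phosphorylate or degrade neurofilaments were called about as often as all genes. Of 24 tested, 4 rose and 1 fell, or 20.8% against 21.8%, with a median of 0.03. The list's median mean count was 7429, and of all genes whose mean count reached 1000 a larger share, 30.6%, was called. Per the authors' deposited table Arhgef28, a nucleotide exchange factor that binds the Nefl transcript, rose to 1.83 (SE 0.29, adjusted p = 1.70e-08), a 3.55-fold change. Map1b, a microtubule protein of growing axons, rose to 0.69 (SE 0.14), and Cdk5r1, the activator of the neurofilament kinase Cdk5, named after its value was seen, to 0.48 (SE 0.16, adjusted p = 0.0145). The kinesin heavy chains Kif5a, Kif5b and Kif5c, which carry neurofilaments along axons and are named here for that role, lay between -0.01 and 0.01 with SEs of 0.04 to 0.11.

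Genes of the axon initial segment and node changed in both directions. Of 25 tested, 7 rose and 7 fell, or 56.0%, with a median of 0.21. In the authors' deposited table the lower ones were led by Scn1a (-1.38, SE 0.19), a sodium channel gene, and Cntnap1 (-1.30, SE 0.20), an adhesion gene of the paranode. Scn3a, the sodium channel gene most expressed before birth, rose to 0.97 (SE 0.18). The median mean count of this list was 4818, and 30.6% of all genes above 1000 were called.

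Neuron and precursor markers gave the setting for the labelled cell type. General neuron markers were abundant, with a median mean count of 28252. Of 16 tested, 8 rose and 2 fell in the authors' deposited table, with a median of 0.25. The share called was 62.5%, against 21.8% of all tested genes and 30.6% of those whose mean count reached 1000. Mapt (0.68), Tubb3 (0.74), Dcx (1.32) and Stmn1 (1.14) rose, and Eno2 (-0.53, SE 0.10) and Syp (-0.25, SE 0.08), the ones that fell, were named after their values were seen. Of 20 precursor markers 3 rose, 1 fell and 16 did not pass, or 20.0% called, near the 21.8% of all tested genes, at a median mean count of 133. The notch target Hes1 rose to 2.17 (SE 0.39), Prom1 to 1.26 (SE 0.39) and Eomes, a factor of intermediate progenitors, to 2.52 (SE 0.89), while the proneural gene Neurog2 fell to -1.88 (SE 0.49).

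Markers of other cell types were called at 47.1% for interneurons, 27.3% for astrocytes and 33.3% for endothelial and mural cells, against 21.8% of all tested genes. The median mean count was 2895 for the interneuron list, and 30.6% of all genes whose count reached 1000 were called. For the astrocyte list it was 194, where counts from 100 to 1000 gave 26.1%, and for the endothelial and mural list 42.5. Of 17 interneuron markers 8 fell and none rose, and their summed implied level in the knockout was 58.2% of wild type, beside 29.8% for Nefh. According to the authors' deposited table Npy (-2.89), Cck (-2.03), Lhx6 (-1.26) and Gad1 (-1.02) had the smallest adjusted p of these. Of 11 astrocyte markers tested 3 rose, namely Slc1a2 (0.93), Glul (0.72) and Aldoc (2.04), and none fell, with a summed level at 187% of wild type. For endothelial and mural markers 4 of 12 fell and none rose, with a summed level at 62.0%, and Tagln (-1.42), Acta2 (-1.73), Pdgfrb (-1.21) and Cldn5 (-6.24, mean count 3.00) fell. These sums come from the same implied levels and have no error. Without the most abundant gene of each list, a choice made after the values were seen, they were 52.7% for interneurons, 178% for astrocytes and 47.5% for endothelial and mural cells. The part of these cells in the values of Nefh and Nes was not tested, and in bulk RNA fewer cells of a type and less RNA per cell cannot be told apart.

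Markers of the peripheral and motor neurons that are best known for peripherin were mostly of low abundance. Of 15 listed, 9 were tested, with a median mean count of 19.0, and 2 rose and 1 fell. That is 33.3% called, beside 21.8% over all tested genes. In the authors' deposited table Chat, Phox2a, Isl2 and Mnx1, named here as defining genes of these neurons, had mean counts of 2.20, 0.70, 1.13 and 0.15 and no adjusted p. Scn9a (1.71, SE 0.43, mean count 61.1) and Calca (0.92, SE 0.33, mean count 59.0) rose. P2rx3 (-0.88, SE 0.24) fell, and its mean count of 266 was near the 279 of Prph. The list's summed implied level in the knockout was 83.9% of wild type with P2rx3, its most abundant gene, and 142% without it. The part of such cells in the value of Prph was not tested.

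Microglia and oligodendrocyte lineage markers completed the lists. Of 10 tested microglia markers 6 fell and none rose, or 60.0% against 21.8% of all tested genes, and the 4 smallest adjusted p in the authors' deposited table were those of Cd68 (-2.29), Csf1r (-3.09), Tyrobp (-4.05) and C1qa (-2.86). Their median mean count was 14.4. Of 8 tested oligodendrocyte lineage markers Mog (0.99) and Cnp (0.51) rose and none fell, or 25.0%, near the share of all tested genes.

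**Figure D5:**
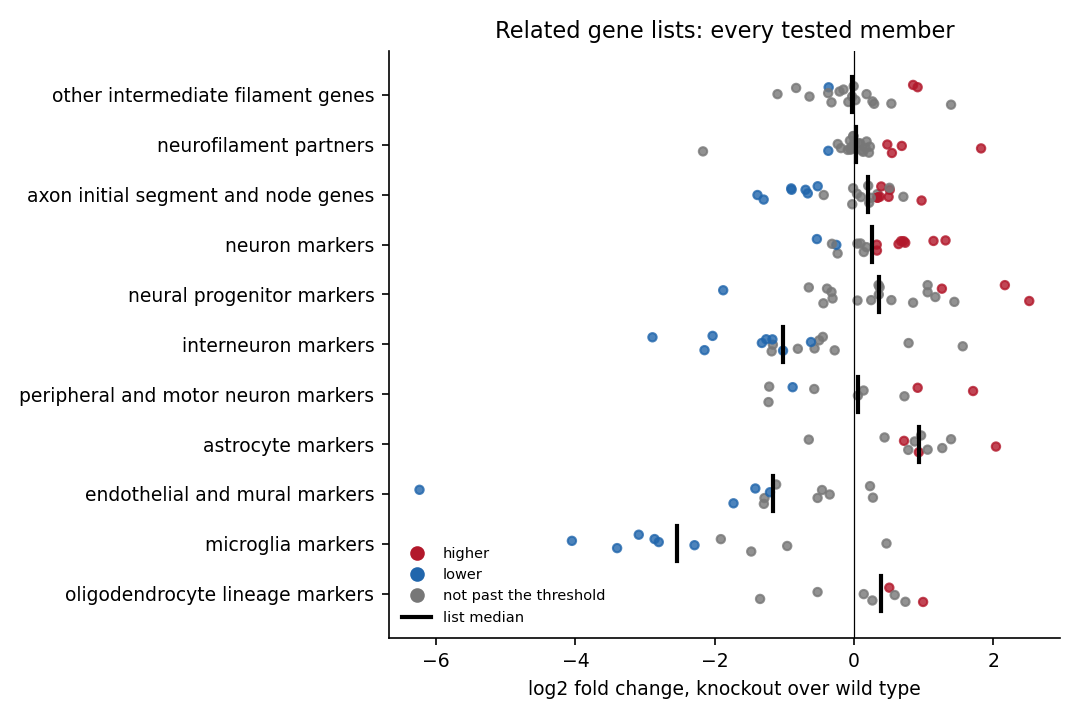
Log2 fold change (knockout over wild type) of every tested member of the 11 related lists, as points, with the list median as a black bar. Calls of the neurofilament partner and axon initial segment lists lie on both sides of 0, whereas every call of the interneuron, endothelial and microglia lists lies below it.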

How the data were processed

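RNA-seq values came from 1 table in which the authors compared 4 wild-type and 4 knockout libraries. The submitters' processing notes name the build mm10, DESeq2 and DESeq, without versions. Not given in the sources used here are the aligner, the counting tool, its strand setting and the annotation. Per the file headers, each gene has a deposited signal, the mean of its normalized counts, and the deposited log2 fold change has its standard error on the log2 scale. The deposited score is a Wald statistic, and its deposited p-value and adjusted p-value were checked to follow from it, within 0.477% and 0.757%.

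Of 26229 genes, 18085 had an adjusted p and count as tested. Another 8135, with mean counts of at most 2.99, had only a p, and 9 had neither. A call is an adjusted p under 0.05. Signs were turned to knockout over wild type by H2bc21. Intervals are 95% normal intervals. Implied levels assume equal weight of the 8 libraries. The step that adjusts p-values again was tested on simulated data. Lists are described by counts and medians, with no set test. Annotation was GENCODE M21, matched by identifier for 26039 rows. The 6 genes and 11 lists were chosen with earlier results of these data known. Named in each list are up to 4 called genes with the smallest adjusted p, or 2 of highest count, and exceptions are stated. A few genes that this rule names are not reported here. A likeness of pattern between genes needs values per library and was not computed. Alternatives were other adjustments, a t distribution, other centrings and stricter calls. Python 3.11.15, numpy 2.4.6, pandas 2.3.3, scipy 1.17.1 and matplotlib 3.10.9 were used.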

Additional observations from a re-analysis of the deposited data

How the results depend on the processing

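No paired analysis was possible because the comparison table holds no values per library, and for the same reason no replicate could be left out. The side of 0 and the call of all 6 genes held when p-values were adjusted over every gene with a p or over genes with a mean count of at least 100, and when the median of all tested genes or of those with a count of at least 1000 was subtracted. With 6 degrees of freedom in a t distribution Nefh (-1.75, adjusted p = 0.0645), Prph (2.28, adjusted p = 0.0645) and Ina (0.40, adjusted p = 0.129) lost their calls, so that 0 of the 6 were higher and 0 lower, and 1 gene of the whole table passed. Over all alternatives, that one included, the adjusted p ran from 1.50e-10 to 0.0645 for Nefh, from 1.22e-09 to 0.0645 for Prph, from 0.00441 to 0.129 for Ina and from 0.0699 to 0.242 for Nes. Under a required log2 change of 0.5 either way 1 gene was higher, since Ina fell short. With the SEs added, 4 of 15 pair differences no longer left out 0, those of Nefl and Nefm against Ina and Nes. Low counts left 5 of the 14 peripheral and motor neuron markers in the table untested.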
